A study of Mus musculus with 13 samples.

Results

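Transcripts of amino acid and monocarboxylate transporters were measured by RNA sequencing in CD4 single-positive (CD4SP) thymocytes at rest and after stimulation, from mice with and without cathepsin L in thymic epithelium. The set was defined by gene symbol as all protein-coding members of the solute carrier families SLC1, SLC3, SLC6, SLC7, SLC16, SLC36, SLC38 and SLC43, which gave 75 of the 21849 protein-coding genes in the files. Of these, 29 reached a mean TPM of 1 (TPM is a transcript abundance corrected for transcript length and library size) in at least 1 of the 4 groups and are described here. The other 46 stayed below that level, and 9 of them had no count in any library.

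All mice were C57BL/6J and carried the *Lm54* T cell receptor transgene on a *Rag1*-/- background, so the CD4SP cells shared 1 receptor, which recognizes a listeriolysin O (LLO) peptide presented by I-Ab. In *Ctsl*ΔTEC mice the gene for cathepsin L, a lysosomal protease that acts in the generation of MHC class II ligands, was removed by *Foxn1*-cre. This Cre acts in the thymic epithelium, so the thymocytes themselves were not the target of the deletion. Controls are called *Ctsl*+/+ as in the study, although the sample labels give them floxed *Ctsl* alleles. Mature M2 cells (CD69-MHCI+ CD4SP) were sorted by flow cytometry. Unstimulated cells came from 4 *Ctsl*+/+ mice (mice 1 to 4) and 5 *Ctsl*ΔTEC mice (mice 1 to 5). Mouse numbers are those of the sample titles, and the names of the deposited tables number 5 of the 13 libraries differently, so a number here only names a library. Stimulated cells, kept for 4 h in serum-free medium on plates coated with LLO:I-Ab (1 µg/ml) together with soluble antibody to CD28 (250 ng/ml), came from *Ctsl*+/+ mice 5 and 6 and *Ctsl*ΔTEC mice 6 and 7. Each library came from 1 mouse, and the labels give no age. The stimulated cells were also the ones that had been cultured, and their files carry a date of their own, so stimulation, culture and date cannot be told apart.

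Resting T cells take up little amino acid, and engagement of the antigen receptor together with CD28 is known to raise transporter expression as the cell prepares to grow and divide. Glutamine, leucine, arginine and serine enter through several families, of which some members exchange one amino acid for another and others use the sodium or proton gradient, while a few sit in the lysosome and report its content to mTORC1, the kinase complex that couples nutrient supply to growth. Monocarboxylate transporters of the SLC16 family include lactate and pyruvate carriers that serve glycolytic cells, as well as members that carry other substrates.

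Depth was 25692380 to 39127833 estimated counts per unstimulated library and 8085463 to 27184520 per stimulated one, the smallest being that of stimulated *Ctsl*+/+ mouse 5. *Cd3e* and *Cd4* were abundant in all 13 libraries, and all 6 activation markers examined were higher after stimulation in both genotypes, although *Il2* was at 71.1 and 72.95 TPM in stimulated *Ctsl*+/+ but 4.18 and 7.79 TPM in stimulated *Ctsl*ΔTEC cells (log2 −3.55, adjusted p = 5.86e-05, edgeR). Of 6 thymic epithelial genes, whose summed level was 7.41 to 10.5 TPM in unstimulated *Ctsl*+/+ and 12.8 to 19.1 TPM in unstimulated *Ctsl*ΔTEC libraries, the defining *Foxn1*, *Krt5* and *Krt8* were at or near 0. *Epcam* and *Ctsl* itself were detected in all libraries and were the 2 of 3 tested that were higher in unstimulated *Ctsl*ΔTEC cells (log2 0.77 and 0.85, adjusted p = 0.0469 and 0.00436). After stimulation none of the 3 passed, and the sums were 11.4 to 11.97 and 13.75 to 15.9 TPM. Markers of double-positive thymocytes, the stage before CD4SP, moved with genotype. Their summed level over 8 genes was 115 to 144 TPM in unstimulated *Ctsl*+/+ and 259 to 325 TPM in unstimulated *Ctsl*ΔTEC libraries, and 44.9 to 48.7 against 86.1 to 86.8 TPM after stimulation. Of these 8 genes, 4 of the 7 tested were higher in unstimulated *Ctsl*ΔTEC cells, chiefly *Cd8a* and *Cd8b1*, while the stage-defining *Rag2* and *Ptcra* were at most 1.31 TPM in every library. The 5 markers of mature CD4SP cells were all lower in unstimulated *Ctsl*ΔTEC cells, with sums of 1335 to 1487 against 1849 to 2145 TPM, and 4 of 5 were lower after stimulation, with sums of 155 to 209.9 against 252 to 371 TPM. Y-linked transcripts were present in 5 of 5 unstimulated *Ctsl*ΔTEC mice and in 1 of 4 unstimulated *Ctsl*+/+ mice (mouse 3), and in 1 mouse of each stimulated group. The part of the marker differences in the genotype results was not tested. In bulk RNA, fewer cells of a type and less RNA per cell cannot be told apart.

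Summed over all transcripts, the highest mean levels in unstimulated *Ctsl*+/+ cells were those of *Slc1a5* and *Slc3a2*. *Slc1a5*, which encodes the neutral amino acid exchanger ASCT2, was at 106.3 ± 8.17 TPM (SD, n = 4). *Slc3a2*, which encodes the CD98 heavy chain, was at 90.9 ± 2.37 TPM. *Slc38a2* (SNAT2, a sodium-coupled importer of small neutral amino acids) followed at 89.9 ± 14.3 TPM, which is within the spread of *Slc3a2*. The next levels were those of *Slc38a10* (69.8 ± 7.69 TPM), *Slc6a6*, the taurine transporter (48.6 ± 6.37 TPM), and *Slc16a5* (46.7 ± 2.17 TPM), and the last 2 did not differ beyond their spread. On coding transcripts alone *Slc1a5* had a mean of 21.7 TPM, below *Slc3a2* (88.3 TPM), *Slc38a2* (79.9 TPM) and *Slc38a1* (33.7 TPM). At the lower edge of the set lay *Slc7a7* at 1.27 TPM in unstimulated *Ctsl*+/+ cells and *Slc36a2* at 1.28 TPM in stimulated *Ctsl*ΔTEC cells, and the nearest genes outside it were *Slc7a8* at 0.876 TPM and *Slc6a8* at 0.833 TPM. Some members entered the set only through groups in which they were high, *Slc6a19* through unstimulated *Ctsl*ΔTEC, *Slc7a3* through stimulated *Ctsl*+/+, *Slc36a2* through stimulated *Ctsl*ΔTEC, *Slc7a7* through the *Ctsl*+/+ groups, *Slc1a4* and *Slc6a9* through the stimulated and *Slc3a1* through the unstimulated groups. A difference from the other groups was thus built into their selection, and counts over the 29 support nothing by themselves. By family, 6 of 14 SLC16, 6 of 11 SLC38, 5 of 15 SLC7, 3 of 19 SLC6, 3 of 4 SLC36, 2 of 7 SLC1, 2 of 3 SLC43 and both SLC3 genes were included.

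**Figure D1:**
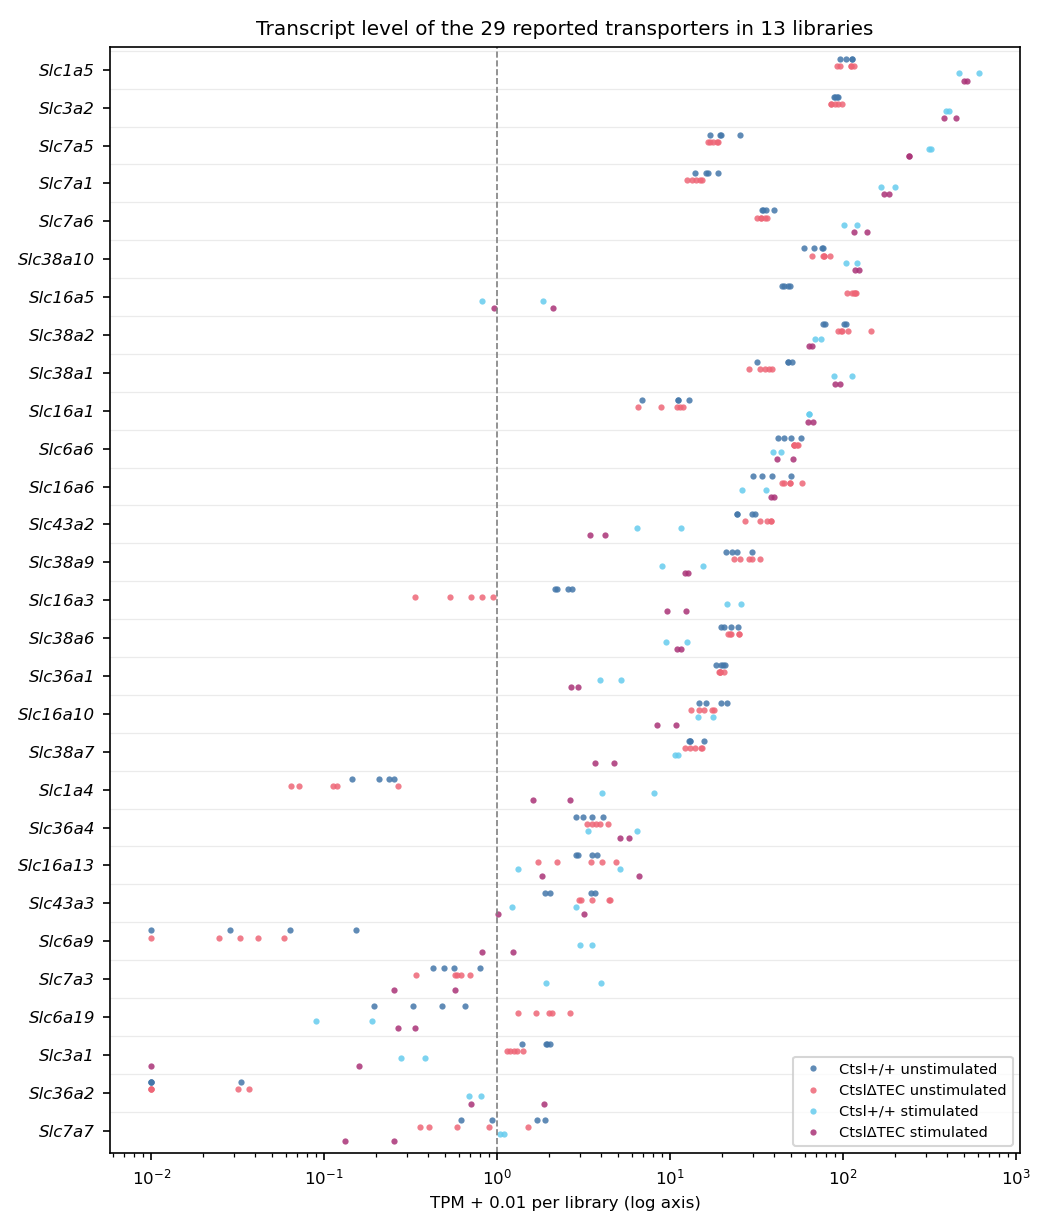
TPM + 0.01 of the 29 transporters on a log axis, 1 point per library, coloured by group, with genes ordered by their highest group mean and the dashed line at 1 TPM. *Slc1a5*, *Slc3a2*, *Slc7a5* and *Slc7a1* lie far to the right after stimulation in both genotypes, whereas *Slc16a5* drops from between 44.5 and 119 TPM to between 0.808 and 2.10 TPM.

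Because TPM was summed over all annotated transcripts of a gene, part of the signal fell on transcripts without a coding annotation. For *Slc3a2*, *Slc7a1*, *Slc16a1*, *Slc36a1* and *Slc3a1* the coding transcripts held at least 93.9% of the TPM in every group. For *Slc1a5* they held 19% to 23.4%, since a retained-intron transcript led, and for *Slc38a9* 24.3% to 32.6%. *Slc16a5* had 43% and 46.8% of its TPM on coding transcripts in unstimulated *Ctsl*+/+ and *Ctsl*ΔTEC cells. *Slc6a19* had 9.65% and 1.2%, and *Slc36a2* was assigned to a processed transcript alone, so for both genes the sums say little about a messenger RNA.

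In unstimulated cells the genotypes were compared over 9 libraries with edgeR's quasi-likelihood test, and a gene was called at an adjusted p under 0.1 after Benjamini-Hochberg adjustment over all genes tested. Of 27 transporters tested, 4 were higher and 6 lower in *Ctsl*ΔTEC cells and 17 did not pass. Without the TPM minimum, 7 of 45 genes of these families were higher and 7 lower. The split followed the setting, with 5 higher and 2 lower under library totals, 5 and 5 with upper-quartile factors, 4 and 2 without *Ctsl*+/+ mouse 2 and 5 and 2 without *Ctsl*+/+ mouse 3, and no direction is read from it. Over all 13152 genes, 14.8% passed, 6.42% higher and 8.36% lower. The median log2 fold change of the transporters was −0.06, against 0.01 for all genes. Most differences were small, and TPM ranges of the genotypes did not overlap for 3 of the 29 transporters, *Slc16a5* and *Slc6a19* above and *Slc16a3* below. Among all 11275 genes at 1 TPM or more, 11.9% had ranges that did not overlap.

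*Slc16a5* (ENSMUSG00000045775; GRCm38 chromosome 11, 115462474 to 115474398, plus strand) encodes a monocarboxylate transporter family member known for carrying drugs and not for lactate. It was at 45.4, 44.5, 47.99 and 49.1 TPM in *Ctsl*+/+ mice 1 to 4 and at 105, 119, 117, 116 and 112 TPM in *Ctsl*ΔTEC mice 1 to 5. Every *Ctsl*ΔTEC library lay above every *Ctsl*+/+ library, and the spread within each genotype was small against the gap between them. The fold change was 2.36 (log2 1.24, standard error (SE) 0.07, adjusted p = 1.2e-06, edgeR), and the exact permutation test on TPM gave p = 0.0159, two-sided, the smallest value it can give with 4 and 5 libraries. *Ctsl*+/+ mouse 3, the control with Y-linked transcripts, was at 47.99 TPM and thus within the range of the other controls, and the log2 fold change was 1.31 among the 6 libraries of the second file date alone. Restricted to the 3 coding transcripts, its level was 20.1 ± 4.06 TPM (SD, n = 4) in *Ctsl*+/+ and 53.2 ± 3.37 TPM (SD, n = 5) in *Ctsl*ΔTEC cells. The leading noncoding transcript rose alongside, from a mean of 15.8 to 32.45 TPM.

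*Slc16a3*, which encodes the lactate exporter MCT4 typical of glycolytic cells, showed the opposite pattern at a much lower level. It was at 2.70, 2.16, 2.57 and 2.22 TPM in *Ctsl*+/+ mice 1 to 4 and at 0.326, 0.693, 0.808, 0.523 and 0.938 TPM in *Ctsl*ΔTEC mice 1 to 5. No *Ctsl*ΔTEC library reached the lowest control. The fold change was 3.66-fold lower (log2 −1.87, SE 0.24, adjusted p = 0.000418, edgeR; exact permutation p = 0.0159), on 9 to 94 counts per library, and the value within the second date alone was −1.57. Here too the control with Y-linked transcripts, at 2.57 TPM, lay with the other controls.

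*Slc16a1*, which encodes the lactate and pyruvate carrier MCT1, did not differ detectably between genotypes. Its levels were 11.0, 12.8, 11.1 and 6.85 TPM in *Ctsl*+/+ mice 1 to 4 and 6.49, 11.4, 8.84, 11.8 and 11.0 TPM in *Ctsl*ΔTEC mice 1 to 5, a log2 difference of −0.12 (SE 0.20, adjusted p = 0.789, edgeR). The 3 lowest values were those of the 3 libraries of the first file date (*Ctsl*+/+ mouse 4 and *Ctsl*ΔTEC mice 1 and 3), which both genotypes share. The remaining calls in the family were small changes. *Slc16a6* was higher by 0.33 on the log2 scale (adjusted p = 0.0193, edgeR), at 30.1 to 49.8 TPM in *Ctsl*+/+ and 44.2 to 57.9 TPM in *Ctsl*ΔTEC cells, and it shares 1052 exon bases with *Amz2* on the opposite strand, which could not be separated without strand. *Slc16a10*, a carrier of aromatic amino acids, was lower by 0.35 on the log2 scale (adjusted p = 0.0764), with overlapping ranges. Its call was lost in 10 of 24 alternatives, among them the second date alone (−0.30, adjusted p = 0.136). *Slc16a13* was at 1.71 to 4.88 TPM in the 9 libraries and did not pass (adjusted p = 0.521).

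**Figure D2:**
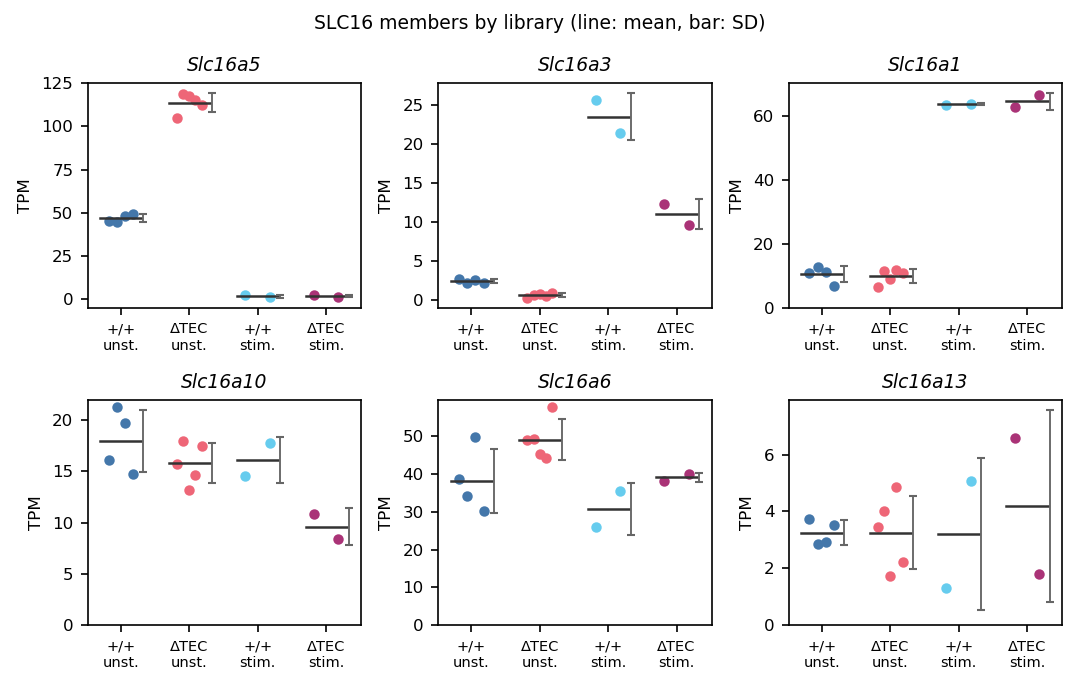
TPM of the 6 SLC16 members in each library by group (points), with the group mean as a line and the SD as a bar beside it, on linear axes. *Slc16a5* is higher in unstimulated *Ctsl*ΔTEC than *Ctsl*+/+ cells and near 0 in all 4 stimulated libraries, *Slc16a3* is lower in *Ctsl*ΔTEC cells in both states, and *Slc16a1* rises with stimulation to between 62.7 and 66.4 TPM.

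*Slc6a19*, a sodium-coupled neutral amino acid transporter best known from intestine and kidney, was in the set only through its level in unstimulated *Ctsl*ΔTEC cells. Its levels were 0.642, 0.183, 0.317 and 0.469 TPM in *Ctsl*+/+ mice 1 to 4 and 1.30, 2.07, 1.98, 2.62 and 1.66 TPM in *Ctsl*ΔTEC mice 1 to 5. The ranges did not overlap, and the log2 fold change was 2.44 (SE 0.34, adjusted p = 0.000836, edgeR; exact permutation p = 0.0159). Coding transcripts made up 0.0389 and 0.023 TPM of these means in *Ctsl*+/+ and *Ctsl*ΔTEC cells, so the difference lay in the noncoding transcripts. *Slc43a3*, a nucleobase transporter despite its family, was higher by 0.61 on the log2 scale (adjusted p = 0.0228, edgeR), with 1.89 to 3.66 TPM in *Ctsl*+/+ and 2.97 to 4.46 TPM in *Ctsl*ΔTEC cells, and did not pass within the second date (0.47, adjusted p = 0.135).

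The remaining members called lower were amino acid carriers with changes of less than 0.6 on the log2 scale. *Slc3a1*, the heavy chain rBAT, was at 1.94, 1.91, 2.01 and 1.38 TPM in *Ctsl*+/+ mice 1 to 4 and at 1.24, 1.13, 1.29, 1.40 and 1.17 TPM in *Ctsl*ΔTEC mice 1 to 5 (log2 −0.58, adjusted p = 0.0354, edgeR), so that *Ctsl*+/+ mouse 4 fell among the *Ctsl*ΔTEC values. Of its exon bases, 601 overlap *Prepl* on the opposite strand. *Slc38a1* (SNAT1, a sodium-coupled glutamine importer) was at 48.2, 48.0, 50.4 and 31.9 TPM in *Ctsl*+/+ mice 1 to 4 and at 28.7, 37.5, 33.1, 35.4 and 38.5 TPM in *Ctsl*ΔTEC mice 1 to 5 (log2 −0.41, adjusted p = 0.0898, edgeR). Again *Ctsl*+/+ mouse 4 was the exception, and within the second date alone the difference was of like size (−0.41) with an adjusted p of 0.00301 (edgeR). Without *Ctsl*+/+ mouse 3 it did not pass (−0.36, adjusted p = 0.216). *Slc7a5*, which encodes LAT1, the leucine-carrying light chain that pairs with the CD98 heavy chain, was at 17.1, 19.4, 25.2 and 19.7 TPM in *Ctsl*+/+ mice 1 to 4 and at 18.9, 17.6, 18.5, 16.4 and 17.03 TPM in *Ctsl*ΔTEC mice 1 to 5 (log2 −0.28, adjusted p = 0.0773, edgeR). The ranges overlapped, and without *Ctsl*+/+ mouse 3 the value was −0.20 with an adjusted p of 0.211. *Slc7a1*, the arginine carrier CAT-1, was at 16.1, 16.4, 18.9 and 14.0 TPM against 14.0, 13.3, 15.2, 14.8 and 12.5 TPM in the same order of mice (log2 −0.27, adjusted p = 0.0537, edgeR). Here too the ranges overlapped and the call was lost without *Ctsl*+/+ mouse 3 (−0.21, adjusted p = 0.157). The exact permutation test on TPM gave p = 0.0317 for *Slc3a1*, 0.0794 for *Slc38a1*, 0.111 for *Slc7a5* and 0.0635 for *Slc7a1*. For the other small changes called above it gave 0.0794 for *Slc16a6*, 0.222 for *Slc16a10* and 0.143 for *Slc43a3*.

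Several transporters that T cells depend on did not pass in unstimulated cells. *Slc1a5* was at 104, 113, 113 and 95.8 TPM in *Ctsl*+/+ mice 1 to 4 and at 111, 112, 92.3, 95.4 and 115 TPM in *Ctsl*ΔTEC mice 1 to 5 (log2 −0.01, SE 0.10). *Slc3a2* was at 88.6, 93.6, 89.4 and 92.2 TPM against 93.5, 84.9, 98.0, 89.4 and 85.1 TPM (log2 −0.06, SE 0.06). The ranges of the genotypes overlapped for both genes. *Slc38a2* was at 101, 103, 78.5 and 76.7 TPM against 98.4, 96.8, 145, 107 and 93.4 TPM (log2 0.22, SE 0.13), with *Ctsl*ΔTEC mouse 3 far above the rest. *Slc38a9*, a lysosomal transporter that signals arginine to mTORC1, was at 24.3, 22.8, 29.6 and 21.1 TPM against 25.3, 28.3, 32.9, 29.8 and 23.3 TPM (log2 0.11, SE 0.08).

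**Figure D3:**
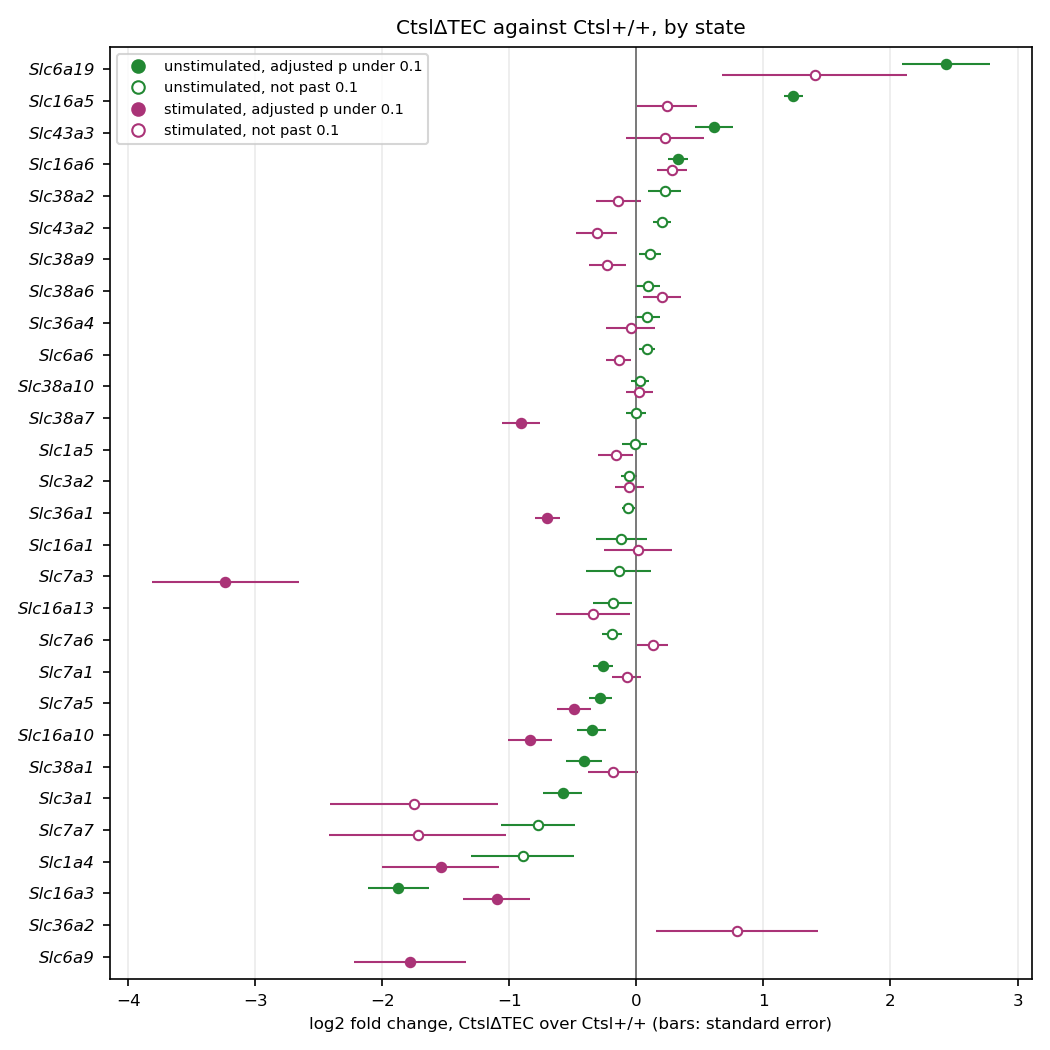
Log2 fold change of *Ctsl*ΔTEC over *Ctsl*+/+ cells for each transporter, unstimulated (9 libraries) and stimulated (13-library model), with standard errors as bars and filled points for an adjusted p under 0.1. In unstimulated cells 4 points are filled to the right of 0 and 6 to the left, and in stimulated cells all 8 filled points lie to the left.

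When the level of the Y-linked transcripts, which all 5 *Ctsl*ΔTEC mice and 1 of 4 *Ctsl*+/+ mice had, entered the model as a covariate, 4 of the 10 genes called in unstimulated cells passed. In that fit the genotype difference rests on 1 control, *Ctsl*+/+ mouse 3, so it gives no independent check of a call. *Slc16a5*, *Slc16a3*, *Slc7a5* and *Slc7a1* passed with log2 fold changes of 1.24, −1.76, −0.52 and −0.44. Without that mouse and without the covariate, *Slc16a5* and *Slc16a3* passed (1.23 and −1.91), whereas *Slc7a5* (−0.20, adjusted p = 0.211) and *Slc7a1* (−0.21, adjusted p = 0.157) did not. The other 6 lost their call while their log2 fold changes stayed about as large or grew. These were 2.41 for *Slc6a19* (adjusted p = 0.133), 0.59 for *Slc43a3* (0.424), 0.34 for *Slc16a6* (0.365), −0.72 for *Slc3a1* (0.253), −0.62 for *Slc38a1* (0.275) and −0.43 for *Slc16a10* (0.416).

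In the model of all 13 libraries, 14 of 29 transporters were higher, 9 lower and 6 not called in *Ctsl*+/+ cells, where 67.7% of all 14241 genes passed, 32.9% higher and 34.8% lower. In *Ctsl*ΔTEC cells 13 were higher, 13 lower and 3 not called, where 71.2% of all genes passed, 32.9% higher and 38.2% lower. These shares of all genes are large, so single calls of stimulation say little by themselves and the size of a change is given with each. Median log2 fold changes of the 29 were 0.09 and −0.24, against 0.01 and −0.06 for all genes. In both genotypes 13 members were higher and 9 lower.

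The CD98 complex rose in both genotypes. *Slc3a2*, the heavy chain, reached 410 and 393 TPM in stimulated *Ctsl*+/+ mice 5 and 6 and 448 and 383 TPM in *Ctsl*ΔTEC mice 6 and 7, against 84.9 to 98.0 TPM in the 9 unstimulated libraries. Log2 fold changes were 2.29 (SE 0.10, adjusted p = 5.26e-11, edgeR) in *Ctsl*+/+ and 2.29 (SE 0.09, adjusted p = 1.57e-11) in *Ctsl*ΔTEC cells. *Slc7a5*, its leucine-carrying partner, rose more steeply, to 314 and 323 TPM in *Ctsl*+/+ and to 240.2 and 242 TPM in *Ctsl*ΔTEC cells. This was 15.6-fold (log2 3.96, SE 0.11, adjusted p = 1.8e-12) and 13.5-fold (log2 3.75, SE 0.11, adjusted p = 7.75e-13) by edgeR. *Slc7a6*, another partner of the CD98 heavy chain that exchanges cationic for neutral amino acids, went from 31.7 to 39.6 TPM to between 101 and 137 TPM (log2 1.52 and 1.84). Of the 2 low members of this group, *Slc7a7* fell in *Ctsl*ΔTEC cells (log2 −1.94, adjusted p = 0.00923, edgeR), on 1 and 3 counts per stimulated library. In *Ctsl*+/+ cells its value was −1.0 (adjusted p = 0.0666), at 1.03 and 1.09 TPM within the resting range of 0.607 to 1.87 TPM. Its exons overlap *Oxa1l* on the opposite strand by 232 bases, and its call in *Ctsl*+/+ cells was lost in 7 of 14 alternatives, with values from −1.85 to −0.21 and an adjusted p of up to 0.819. *Slc3a1* dropped from 1.13 to 2.01 TPM to 0.371 and 0.267 TPM in *Ctsl*+/+ and to 0 and 0.150 TPM in *Ctsl*ΔTEC cells. Its 16 and 4 counts in the stimulated groups gave ratios of stimulated over unstimulated depth-scaled counts of 0.162 (95% counting interval 0.0918 to 0.267) and 0.0718 (0.0194 to 0.186).

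Among cationic amino acid carriers, *Slc7a1* reached 166 and 199.6 TPM in *Ctsl*+/+ and 173 and 183 TPM in *Ctsl*ΔTEC cells, from 12.5 to 18.9 TPM at rest. The rise was 11.8-fold (log2 3.57, SE 0.10, adjusted p = 1.35e-12, edgeR) and 13.5-fold (log2 3.76, SE 0.09, adjusted p = 1.6e-13), and stimulated and resting libraries did not overlap. *Slc7a3* (CAT-3), a related carrier at far lower levels, behaved differently in the genotypes and is described with the comparison of stimulated cells.

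In the SLC1 family, the glutamine exchanger gene *Slc1a5* reached the highest level of the set when summed over all transcripts. It was at 466 and 607 TPM in *Ctsl*+/+ and 496 and 519 TPM in *Ctsl*ΔTEC cells. Log2 fold changes were 2.41 (SE 0.12, adjusted p = 2.1e-10, edgeR) and 2.27 (SE 0.11, adjusted p = 1.26e-10). Its single coding transcript rose with the noncoding ones, from 21.7 ± 6.14 TPM (SD, n = 4) to 122 ± 7.59 TPM (SD, n = 2) in *Ctsl*+/+ and from 24.7 ± 5.95 (SD, n = 5) to 96.2 ± 1.05 TPM (SD, n = 2) in *Ctsl*ΔTEC cells. These stimulated levels were below the means of *Slc3a2* coding transcripts, 394 TPM in *Ctsl*+/+ and 406 TPM in *Ctsl*ΔTEC cells. *Slc1a4* (ASCT1, a carrier of alanine, serine and cysteine) was nearly silent at rest, at 0.0544 to 0.256 TPM, and rose to 8.03 and 4.03 TPM in *Ctsl*+/+ and 2.64 and 1.60 TPM in *Ctsl*ΔTEC cells (log2 5.04 and 4.40, adjusted p = 6.53e-08 and 2.15e-07, edgeR).

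The lactate carriers rose as well. *Slc16a1* was at 63.5 and 63.8 TPM in stimulated *Ctsl*+/+ and 62.7 and 66.4 TPM in stimulated *Ctsl*ΔTEC cells, 6.62-fold (log2 2.73, SE 0.22, adjusted p = 5.88e-08, edgeR) and 7.25-fold (log2 2.86, SE 0.21, adjusted p = 1.21e-08) above rest. *Slc16a3* rose to 25.6 and 21.3 TPM in *Ctsl*+/+ and to 12.3 and 9.61 TPM in *Ctsl*ΔTEC cells (log2 3.41 and 4.18, adjusted p = 5.1e-09 and 4.86e-10). Stimulated libraries lay above all unstimulated ones for both genes.

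*Slc16a5*, in contrast, nearly disappeared. It was at 1.83 and 0.808 TPM in stimulated *Ctsl*+/+ mice 5 and 6 and at 2.10 and 0.952 TPM in *Ctsl*ΔTEC mice 6 and 7, on 13, 29, 17 and 24 counts. The level was 37.6-fold lower than at rest in *Ctsl*+/+ cells (log2 −5.23, SE 0.17, adjusted p = 3.87e-12, edgeR) and 74.9-fold lower in *Ctsl*ΔTEC cells (log2 −6.23, SE 0.16, adjusted p = 3.56e-13). After stimulation the ranges of the genotypes overlapped and the log2 difference was 0.24 (SE 0.24, adjusted p = 0.662).

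SLC38 members divided. *Slc38a1* rose from 28.7 to 50.4 TPM to between 89.0 and 112 TPM (log2 1.26 and 1.50, adjusted p = 8.38e-06 and 5.98e-07, edgeR), and *Slc38a10* rose by 0.59 in both genotypes. *Slc38a2* was at 69.1 and 73.9 TPM in stimulated *Ctsl*+/+ and 63.2 and 65.7 TPM in stimulated *Ctsl*ΔTEC cells, below all resting values. It fell in *Ctsl*ΔTEC cells (log2 −0.58, SE 0.15, adjusted p = 0.00372), and the value in *Ctsl*+/+ cells was −0.22 (SE 0.16, adjusted p = 0.229). *Slc38a9* fell to 8.98 and 15.5 TPM in *Ctsl*+/+ and 12.7 and 12.1 TPM in *Ctsl*ΔTEC cells (log2 −0.92 and −1.26, adjusted p = 1.52e-05 and 4.31e-07, edgeR). *Slc38a6* was lower in both genotypes (log2 −0.67 and −0.56), as was *Slc38a7*, which encodes a lysosomal exporter of glutamine and asparagine (log2 −0.34 and −1.24, adjusted p = 0.024 and 5.3e-07). The fall of *Slc38a7* in *Ctsl*+/+ cells lost its call in 3 of 16 alternatives (a length offset, thinning, and without stimulated mouse 6), with values down to −0.145 and an adjusted p of up to 0.379.

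Of the remaining families, the proton-coupled lysosomal transporter gene *Slc36a1* (PAT1) fell from 18.5 to 20.8 TPM to 3.92 and 5.15 TPM in *Ctsl*+/+ and 2.92 and 2.67 TPM in *Ctsl*ΔTEC cells (log2 −1.97 and −2.60, adjusted p = 8.99e-11 and 5.3e-12, edgeR). *Slc43a2*, the neutral amino acid carrier LAT4, was at 31.0, 24.2, 29.7 and 24.2 TPM in resting *Ctsl*+/+ mice 1 to 4 and at 36.3, 26.9, 38.3, 38.2 and 32.96 TPM in resting *Ctsl*ΔTEC mice 1 to 5. It fell to 11.5 and 6.45 TPM and to 3.44 and 4.19 TPM after stimulation (log2 −2.30 and −2.81, adjusted p = 2.53e-09 and 2.33e-10). *Slc6a19* fell too (log2 −1.47 and −2.50), to 0.0791 to 0.327 TPM, on 4 to 15 counts per stimulated library. In *Ctsl*+/+ cells its call was lost in 2 of 14 alternatives, without unstimulated mouse 1 and without stimulated mouse 6, the latter with a value of −0.756 (adjusted p = 0.513).

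*Slc36a4* (PAT4) rose slightly (log2 0.77 and 0.64, adjusted p = 0.00072 and 0.00207, edgeR), with overlapping ranges in *Ctsl*+/+ cells, where the call was lost without stimulated mouse 6 (0.34, adjusted p = 0.12). *Slc6a9*, the glycine transporter GlyT1, had 4 counts over the 4 resting *Ctsl*+/+ libraries and 236 over the stimulated pair, a ratio of depth-scaled counts of 210.1 (95% counting interval 81.0 to 778). In *Ctsl*ΔTEC cells it had 8 and 61 counts, a ratio of 44.7 (21.3 to 108). *Slc36a2* had 1 and 29 counts in *Ctsl*+/+ cells (ratio 103, 17.1 to 4219) and 2 and 40 counts in *Ctsl*ΔTEC cells (ratio 117, 30.4 to 1002), all on a processed transcript. These intervals cover counting error only. *Slc16a6* and *Slc16a13* were not called in either genotype, and *Slc6a6* (log2 −0.02 and −0.24, adjusted p = 0.88 and 0.0203), *Slc43a3* (−0.49 and −0.88, adjusted p = 0.111 and 0.00562) and *Slc16a10* (−0.27 and −0.75, adjusted p = 0.127 and 0.000387) passed in *Ctsl*ΔTEC cells. The call of *Slc6a6* was lost in 3 of 17 alternatives (a length offset, thinning, and without stimulated mouse 6, adjusted p up to 0.424), and that of *Slc43a3* in 2 of 17 (a length offset, and without stimulated mouse 7, adjusted p up to 0.121). For none of these 3 did the change itself differ detectably between genotypes (adjusted p of the interaction 0.388, 0.673 and 0.252).

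**Figure D4:**
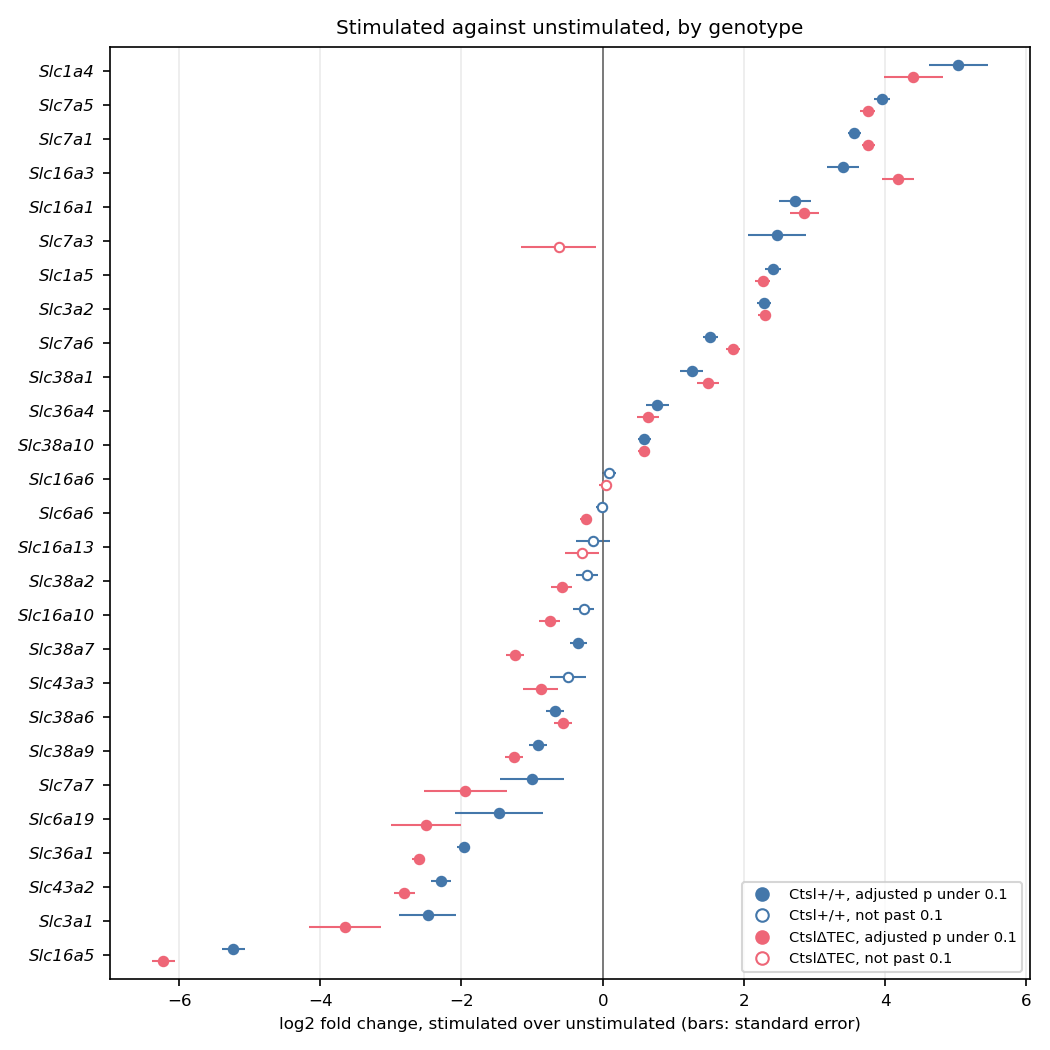
Log2 fold change of stimulated over unstimulated cells in *Ctsl*+/+ and *Ctsl*ΔTEC mice for 27 transporters, with standard errors as bars and filled points for an adjusted p under 0.1 (edgeR, 13 libraries). *Slc6a9* and *Slc36a2*, at 0 to 3 counts per resting library, are left out; the 2 genotypes lie close together for most genes, and several lie further to the left in *Ctsl*ΔTEC mice, of which *Slc7a3*, *Slc16a5*, *Slc38a7* and *Slc36a1* passed the test of that difference and *Slc3a1*, *Slc6a19* and *Slc7a7*, among others, did not.

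Ranges of TPM at rest and after stimulation did not overlap for 13 members above and 9 below in *Ctsl*+/+ cells and for 13 above and 13 below in *Ctsl*ΔTEC cells, against 70.2% and 74.2% of all genes at 1 TPM or more.

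Stimulated cells of the genotypes differed in 8 of the 29 transporters, all lower in *Ctsl*ΔTEC cells. Without the TPM minimum, 8 of 50 genes of these families were lower and 0 higher. Of all 14241 genes, 13.3% passed, 2.77% higher and 10.6% lower, and the median log2 fold change was −0.16 for the transporters and −0.06 for all genes. With 2 mice per group, ranges of 12 members lay below and of 2 above, where 47.7% of all genes did not overlap. TPM and the test on counts can diverge. *Slc43a2* was at 6.45 to 11.5 TPM in *Ctsl*+/+ and 3.44 to 4.19 TPM in *Ctsl*ΔTEC cells, but its log2 difference was −0.31 (adjusted p = 0.26, edgeR). The members called lower were *Slc7a3*, *Slc6a9*, *Slc1a4*, *Slc16a3*, *Slc38a7*, *Slc16a10*, *Slc36a1* and *Slc7a5*.

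*Slc7a3* was in the set only through its level in stimulated *Ctsl*+/+ cells, so that a lower value elsewhere was part of its selection. At rest it was at 0.48, 0.55, 0.785 and 0.415 TPM in *Ctsl*+/+ mice 1 to 4 and at 0.605, 0.689, 0.557, 0.573 and 0.33 TPM in *Ctsl*ΔTEC mice 1 to 5. After stimulation it was at 3.98 and 1.90 TPM in *Ctsl*+/+ but at 0.56 and 0.242 TPM in *Ctsl*ΔTEC cells, on 61 and 87 against 11 and 4 counts. It thus rose in *Ctsl*+/+ cells (log2 2.47, SE 0.41, adjusted p = 8.7e-05, edgeR) and stood at −0.62 in *Ctsl*ΔTEC cells (SE 0.53, adjusted p = 0.316). Stimulated *Ctsl*ΔTEC cells were 9.41-fold lower than stimulated *Ctsl*+/+ cells (log2 −3.23, SE 0.58, adjusted p = 0.00328). The size was uncertain, from −2.49 without *Ctsl*ΔTEC mouse 7 to −4.43 without *Ctsl*ΔTEC mouse 6. On coding transcripts alone the means were 1.6 and 0.28 TPM, since a retained-intron transcript of *Slc7a3* held 1.33 TPM in stimulated *Ctsl*+/+ cells.

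Among neutral amino acid carriers, *Slc6a9* was at 3.50 and 3.02 TPM in stimulated *Ctsl*+/+ and at 0.812 and 1.22 TPM in stimulated *Ctsl*ΔTEC cells (log2 −1.78, SE 0.44, adjusted p = 0.020, edgeR), although 1429 of its exon bases overlap *Ccdc24* on the opposite strand. *Slc1a4*, with the levels given above, was 2.91-fold lower (log2 −1.54, SE 0.46, adjusted p = 0.0522), but the call was lost in 3 of 14 alternatives, and without stimulated *Ctsl*+/+ mouse 5 the value was −0.88 (adjusted p = 0.471). *Slc7a5* was at 314 and 323 against 240.2 and 242 TPM, a 1.41-fold lower level (log2 −0.49, SE 0.13, adjusted p = 0.0304). This call was lost in 4 of 15 alternatives, namely the 4 stimulated libraries alone and without *Ctsl*+/+ mouse 5, *Ctsl*ΔTEC mouse 6 or *Ctsl*ΔTEC mouse 7, where values were −0.38 or lower and the adjusted p reached 0.231. Those of *Slc6a9* and *Slc16a3* were each lost in 2 of 14, when either *Ctsl*+/+ mouse 5 or *Ctsl*ΔTEC mouse 6 was left out (adjusted p up to 0.161 and 0.192). Over all transcripts *Slc3a2*, the heavy chain gene of *Slc7a5*, did not pass (log2 −0.06, SE 0.11), nor did *Slc1a5* (−0.16, SE 0.14) or *Slc7a1* (−0.07, SE 0.12). These values do not show equal levels, only that a difference was not detectable with 2 mice per group. On coding transcripts alone *Slc7a5* was at 269 ± 11.4 and 192 ± 0.467 TPM (SD, n = 2 each). Coding transcripts of *Slc1a5*, 22.8% and 19% of its TPM in the stimulated groups, were at 117 and 128 TPM in *Ctsl*+/+ against 97 and 95.5 TPM in *Ctsl*ΔTEC cells, lower without overlap and not tested separately.

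In the SLC16 family *Slc16a3* was 2.14-fold lower (log2 −1.10, SE 0.26, adjusted p = 0.0176, edgeR), and *Slc16a10* was at 14.6 and 17.7 TPM in stimulated *Ctsl*+/+ and at 10.9 and 8.35 TPM in stimulated *Ctsl*ΔTEC cells (log2 −0.84, SE 0.17, adjusted p = 0.00761). *Slc16a1* did not differ detectably (log2 0.01, SE 0.27, adjusted p = 0.991).

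*Slc36a1* and *Slc38a7*, of the 3 lysosomal transporter genes that fell with stimulation in *Ctsl*+/+ cells, fell further in *Ctsl*ΔTEC cells. *Slc36a1* differed by −0.70 between stimulated genotypes (SE 0.10, adjusted p = 0.000723, edgeR). *Slc38a7* was at 15.7, 12.9, 12.97 and 13.1 TPM in resting *Ctsl*+/+ and at 15.1, 13.9, 15.2, 13.1 and 12.2 TPM in resting *Ctsl*ΔTEC cells, and after stimulation at 10.6 and 11.1 TPM in *Ctsl*+/+ but 3.67 and 4.75 TPM in *Ctsl*ΔTEC cells. The difference between stimulated genotypes was −0.90 (SE 0.15, adjusted p = 0.00186). Coding transcripts gave the same order, at 6.66 ± 0.763 against 3.31 ± 0.0456 TPM (SD, n = 2 each). Neither call was lost in any of 15 alternatives.

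**Figure D5:**
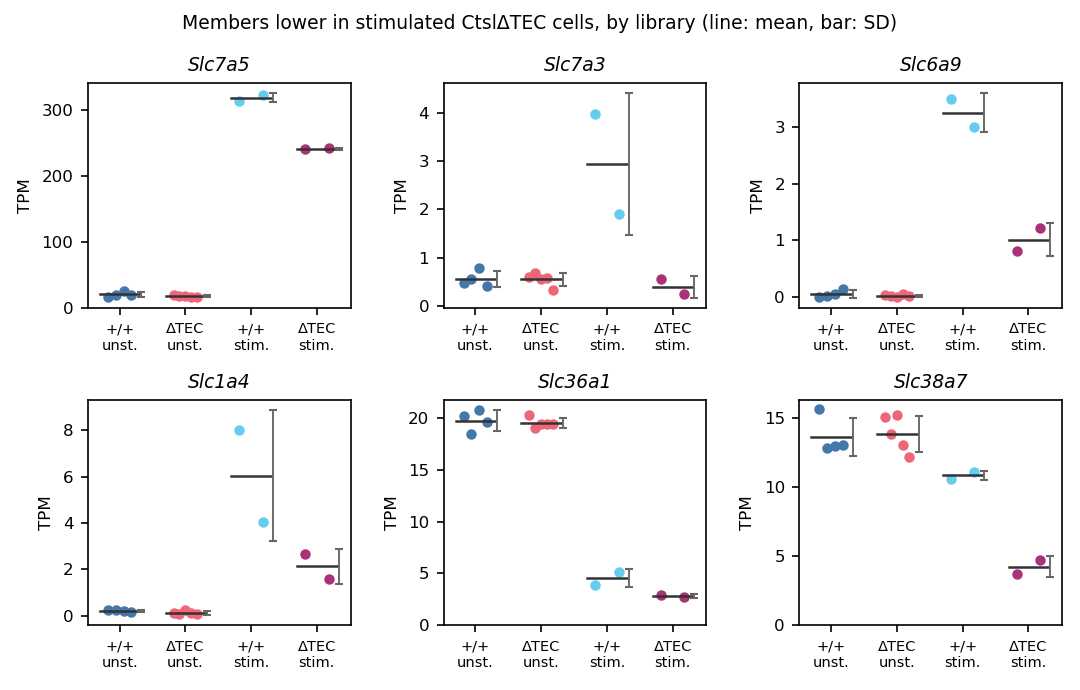
TPM in each library (points) of 6 transporters called lower in stimulated *Ctsl*ΔTEC than *Ctsl*+/+ cells, with group means as lines and SDs as bars, on linear axes. *Slc7a3* rises in *Ctsl*+/+ cells, *Slc6a9*, *Slc1a4* and *Slc7a5* rise in both genotypes but to a lower level in *Ctsl*ΔTEC cells, and *Slc36a1* and *Slc38a7* fall in both but further in *Ctsl*ΔTEC cells.

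Whether the effect of stimulation itself differed between genotypes was tested as an interaction. It passed for 4 of the 29 transporters, and for 4 of 50 genes of these families without the TPM minimum, all with a more negative change in *Ctsl*ΔTEC cells. Of all genes 6.01% passed, 1.13% in the positive and 4.88% in the negative direction. The log2 differences were −3.09 for *Slc7a3* (SE 0.67, adjusted p = 0.024, edgeR), −0.90 for *Slc38a7* (0.17, adjusted p = 0.0143), −0.63 for *Slc36a1* (0.12, adjusted p = 0.0127) and −0.99 for *Slc16a5* (0.25, adjusted p = 0.0654). The genotypes of *Slc16a5* differed at rest and overlapped after stimulation, and its interaction lost its call in 8 of 23 alternatives. That of *Slc36a1* was lost after thinning to the smallest library (adjusted p = 0.138). That of *Slc7a3* did not pass without stimulated *Ctsl*+/+ mouse 5 (−2.39, adjusted p = 0.112) or without stimulated *Ctsl*ΔTEC mouse 7 (−2.34, adjusted p = 0.105). *Slc7a3* was also in the set only through its level in stimulated *Ctsl*+/+ cells, so a difference was part of its selection. For *Slc7a5*, *Slc16a3*, *Slc1a4* and *Slc6a9* the interaction did not pass (adjusted p = 0.594, 0.263, 0.706 and 0.204), so a genotype difference in the response itself was not shown for them.

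Upstream sequence was available for 19 of the 29 transporters in RefSeq windows of 250 bases before and 50 bases after the transcription start (GRCm38.p6). Only the 250 bases before the start were searched, on both strands, and all hits and shares below refer to them. The motifs were the E-box CACGTG, which Myc and the lysosomal regulator TFEB are known to bind, and TGATGNAA, a composite site known for ATF4. CACGTG was in 6.02% of all 32851 windows and in those of 3 transporters, *Slc16a1*, *Slc36a1* and *Slc38a7*. Of the members with a window, 1 of 9 that rose in both genotypes and 2 of 8 that fell in both held it, while 6.86% of all genes had it in at least 1 window. TGATGNAA was in 3.45% of windows and, within the set, in that of *Slc7a7* only. The 250 bases before the start of the 3 genes are given 5′ to 3′ with the motif in capitals, the first because it rose in both genotypes, the others, chosen after their values were seen, because they fell and differed between genotypes. A match is a description of the sequence and not a binding site.
*Slc16a1*, chr3:104638414-104638663, plus strand, motif starting 200 bases before the start: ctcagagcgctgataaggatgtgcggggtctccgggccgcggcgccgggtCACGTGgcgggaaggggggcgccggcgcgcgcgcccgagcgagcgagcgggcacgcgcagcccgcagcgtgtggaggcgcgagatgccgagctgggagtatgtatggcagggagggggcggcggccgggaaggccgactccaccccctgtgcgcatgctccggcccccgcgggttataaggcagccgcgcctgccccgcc
*Slc36a1*, chr11:55204090-55204339, plus strand, motif starting 31 bases before the start: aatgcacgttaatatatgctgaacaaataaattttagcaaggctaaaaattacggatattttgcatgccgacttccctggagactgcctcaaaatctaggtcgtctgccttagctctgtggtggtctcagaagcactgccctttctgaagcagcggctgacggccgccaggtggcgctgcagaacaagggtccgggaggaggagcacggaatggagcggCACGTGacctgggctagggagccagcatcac
*Slc38a7*, chr8:95853492-95853741, minus strand, motif starting 34 bases before the start: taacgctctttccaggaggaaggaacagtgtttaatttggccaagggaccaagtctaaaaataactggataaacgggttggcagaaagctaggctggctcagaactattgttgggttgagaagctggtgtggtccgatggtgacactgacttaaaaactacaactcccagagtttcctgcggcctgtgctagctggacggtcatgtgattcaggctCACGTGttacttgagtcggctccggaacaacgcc

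Counts for the genes around these transporters are to be read against the shares of all genes called lower in *Ctsl*ΔTEC cells, 8.36% at rest and 10.6% after stimulation. Of the partners of monocarboxylate transport, *Ldha* (lactate dehydrogenase A) was lower in *Ctsl*ΔTEC cells at rest (log2 −0.60, adjusted p = 0.000192, edgeR) and after stimulation (−0.62, adjusted p = 0.00576), and *Emb*, a chaperone of these carriers, after stimulation (−0.60, adjusted p = 0.00673). *Bsg*, the other chaperone, and *Ldhb* did not pass in either comparison. Among 8 regulators of amino acid transporters, *Myc*, *Atf4* and *Hif1a* rose on stimulation in both genotypes (log2 3.76 and 4.13 for *Myc*) and the other 5 fell, among them *Nedd4l* (log2 −2.89 and −2.86), a ubiquitin ligase that removes transporters from the membrane. Of these 8, *Nedd4* and *Rnf5* were lower in stimulated *Ctsl*ΔTEC cells, and *Nedd4* also at rest.

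Of 13 amino acid sensors and Rag GTPase pathway genes, 1 was lower in unstimulated *Ctsl*ΔTEC cells and 5 in stimulated ones, and none was higher, so the share at rest was near that of all genes (8.36% lower). The 5 included *Sesn2*, a leucine sensor and known stress-response gene, which rose on stimulation in *Ctsl*+/+ cells (log2 1.99, adjusted p = 4e-07, edgeR) but not detectably in *Ctsl*ΔTEC cells (0.19, adjusted p = 0.434), with an interaction of −1.79 (adjusted p = 0.00558). *Castor2* (interaction −1.33, adjusted p = 0.0207) and *Sesn1* (−0.89, adjusted p = 0.053) also changed more negatively. Of 12 mitochondrial amino acid and pyruvate carriers, 2 were lower at rest and 3 after stimulation in *Ctsl*ΔTEC cells, the serine carrier gene *Sfxn1* in both (log2 −0.51 and −0.42). Of 6 lysosomal exporters outside the set, 5 were tested at rest and 6 after stimulation, and 1 and 2 were lower, *Slc15a4* in both. Median log2 fold changes of the sensors were −0.05 at rest and −0.33 after stimulation, where those of all genes were 0.01 and −0.06.

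As a description, the protein-coding genes whose log2(TPM + 1) followed *Slc16a5* most closely over the 13 libraries, among 11029 genes, were *Gimap7* (Pearson r = 0.995), *Epsti1*, *Scg5*, *Rab37* and *Fam3c* (r = 0.991). All had higher mean levels in unstimulated *Ctsl*ΔTEC than *Ctsl*+/+ cells, for example 137.5 against 81.7 TPM for *Gimap7*, and much lower ones after stimulation. Those closest to *Slc7a5* were *Wars*, *Ifitm2*, *Srm*, *Slc19a1* and *Grwd1* (r of 0.997 for the last). All of these genes share the split into resting and stimulated libraries, and the 13 libraries are not independent points.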

How the data were processed

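Libraries from 13 mice had been sequenced and quantified by the authors with kallisto 0.48 (per the labels) against an Ensembl mouse transcriptome. The deposited files give, for each of 117497 transcripts, estimated counts, which the authors' quantification leaves unnormalized, and TPM, which it scales to transcript length and library total. Whether counting used strand is not given in the sources used here, and the labels and the methods differ on whether RNA was selected by poly(A) or depleted of ribosomal RNA. Here both values were summed to genes through GENCODE M21 (GRCm38), whose release is not that of the files. The 1100 transcripts it lacked held up to 0.461% of a library.

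Summed counts were rounded and tested with edgeR 4.0.16 (R 4.3.3; TMM factors, low-count filter, quasi-likelihood test) with Benjamini-Hochberg adjustment over all genes tested, at an adjusted p under 0.1. The unstimulated contrast used 9 libraries, and the others a model of 4 groups over 13 libraries. DESeq2 1.42.0, other scalings, filters, covariates, a replicate block and leaving out each mouse were alternatives. Exact permutation tests ran over all 126 splits of the unstimulated libraries. Groups came from the labels, and no column of other samples was used. Values are given per library for transporters with a known role in T cells and for most of the 3 largest changes in each direction of each contrast. Of the latter, *Slc43a3* and *Slc36a2* are given by range or pooled counts, and some others per library in 1 state only. Further members were named in the text after their values were seen. Members and lists were chosen with earlier results of these data known. Intervals and count ratios cover counting error only, and p-values measure the spread between mice. In the model of 13 libraries the 4 groups shared 1 estimate of that spread, and 9 of the libraries were unstimulated. The contrasts of stimulation also carry culture and file date, which coincide with it.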

Additional observations from a re-analysis of the deposited data

Results flagged for a closer look

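In 6 of 58 sets of unstimulated libraries (29 transporters in each genotype) 1 mouse stood far from the others by Dixon's criterion, where chance gives about 1 in 20 or 2.9. *Slc38a2* was at 145.2 TPM in *Ctsl*ΔTEC mouse 3 and at 93.36 to 106.6 TPM in the other *Ctsl*ΔTEC mice, and the same mouse had 0.2555 TPM of *Slc1a4* against 0.05441 to 0.1093 TPM. *Ctsl*+/+ mouse 4 was low for *Slc38a1* (31.91 TPM, others 47.97 to 50.41) and *Slc3a1* (1.381 TPM, others 1.906 to 2.009), and it alone of the 4 controls had *Slc36a2*, at 0.02295 TPM on 1 count. *Slc38a7* was at 15.68 TPM in *Ctsl*+/+ mouse 1 and at 12.85 to 13.07 TPM in the other controls. *Ctsl*+/+ mouse 4 and *Ctsl*ΔTEC mouse 3 are both of the first file date. Each also had the highest level of the erythroid gene *Hbb-bs* in its unstimulated group. *Ctsl*+/+ mouse 4 was at 140 TPM (others 73.5 to 103) and *Ctsl*ΔTEC mouse 3 at 345 TPM (others 73.0 to 206). With date as a factor 12 transporters were called in unstimulated cells, but the part of date or cell content in these outlying values was not tested.

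The effect of stimulation differed between the genotypes by the interaction term (edgeR, adjusted p under 0.1) for *Slc7a3* (log2 −3.093), *Slc16a5* (−0.9948), *Slc38a7* (−0.899) and *Slc36a1* (−0.6337), each with the more negative change in *Ctsl*ΔTEC cells. *Slc7a3* was in the set only through its level in stimulated *Ctsl*+/+ cells, so a difference was part of its selection. Its interaction did not pass without stimulated *Ctsl*+/+ mouse 5 or *Ctsl*ΔTEC mouse 7. That of *Slc16a5* was lost in 8 of 23 alternatives and that of *Slc36a1* in 1 of 23.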

How the results depend on the processing

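In unstimulated cells 10 transporters were called. The count was 6 at an adjusted p under 0.05, 4 with the Y-linked covariate (422 of all genes against 1943) and 6 to 10 when 1 mouse was left out, the lowest without *Ctsl*+/+ mouse 2. Mice that share a number deviated together in 1 of 4 pairs (correlations −0.308, 0.518, −0.15 and −0.345), so the numbers, which also differ between titles and table names, were not taken as pairs. With the mouse number as a replicate block over 8 libraries 5 transporters and 1056 genes were called, and 7 and 1549 in the same libraries without the block, a fit chosen after seeing the data. With library totals in place of TMM 56.8% of all calls were higher, against 43.4%, and 5 transporters were higher and 2 lower. Calls of *Slc16a5* and *Slc16a3* held under every alternative run, 24 and 23 of them, while *Slc38a1* was lost in 13 of 24, *Slc7a5* in 11 and *Slc16a10* in 10.

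In stimulated cells 8 were called, 5 (1 higher, 4 lower) among genes with 10 counts in every library, and 4 to 8 when 1 mouse was left out, with 4 without *Ctsl*+/+ mouse 5 (966 of all genes against 1898) and 4 without *Ctsl*ΔTEC mouse 6 (945). The 4 stimulated libraries alone called 1127 genes. The share of all calls that were higher was 20.8%, and 30.3% with upper-quartile factors, 36.6% with 10 counts in every library and 30.1% with the stimulated libraries alone. The interaction count of 4 was 2 after thinning to the smallest library and 2 to 4 without 1 mouse, with 2 without stimulated *Ctsl*+/+ mouse 5 (340 of all genes against 856). Counts for stimulation were 23 and 26 and stayed within 1.5 times under all alternatives. Library totals moved the median of all genes by −0.144 in *Ctsl*ΔTEC cells.

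Signs turned for values near 0. In unstimulated cells *Slc1a5* was 0.032 with library totals, 0.001 with upper-quartile factors, 0.043 after thinning, 0.006 within the second date and −0.069 to 0.037 without 1 mouse, *Slc38a9* was −0.077 with the Y-linked covariate, and *Slc16a1* was −0.269 to 0.014 without 1 mouse. In stimulated cells *Slc3a2* was 0.012 with 10 counts in every library, 0.009 with a length offset and −0.202 to 0.09 without 1 mouse. *Slc16a1* was −0.016 with the length offset and −0.071 to 0.084 without 1 mouse, and *Slc16a5* −0.179 to 0.428. The interaction of *Slc3a2* was −0.047 with library totals, −0.002 with no count filter, −0.104 with the Y-linked covariate and −0.14 to 0.151 without 1 mouse. The cause was not tested for any of these. Depth limits members with few counts after stimulation, among them *Slc3a1*, *Slc7a7*, *Slc6a19* and *Slc36a2*.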
